A study of Mus musculus with 6 samples.

Results

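The miRNAs of the Dlk1-Dio3 imprinted domain were followed in mouse embryonic stem cells (mESCs) and in embryoid bodies (EBs), clumps of cells in which mESCs begin to differentiate. Members were chosen by name: every mature miRNA on the array, of either arm and any letter, whose miR number belongs to a hairpin of the domain. This gave 109 of the 1247 mouse miRNAs on the array, from 57 hairpins. RefSeq (GRCm38.p6) places 56 of these hairpins on chromosome 12, while miR-496b, which the choice by number also takes in, lies on chromosome 19 and was not detected. Of the 109 members, 31 were detected on at least 1 array, 30 passed the filter for testing and 15 were detected on all 6 arrays.

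The study had 3 groups of 2 arrays each, hybridised with Cy3-labelled total RNA on a single-colour Agilent miRNA platform. The first group was C57-mESCs, kept for 16 h in normoxia on mouse embryonic fibroblast feeders blocked with mitomycin C, in medium with LIF, which keeps them from differentiating. The second was EBs made in hanging drops with neither feeders nor LIF and kept for 16 h in normoxia, and the third was EBs made in the same way and kept for 16 h in hypoxia. The sources used here do not give the oxygen level, the age of the EBs or whether feeder cells were removed before RNA extraction. All cells carry the labels of a single line, and the labels do not say whether the arrays of a group stand for separate cultures. The p-values below thus measure only the spread between arrays, a spread that may be technical, and 2 arrays a group limit the precision.

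The Dlk1-Dio3 domain is one of the largest groups of miRNA genes in the mouse genome. Its protein-coding genes Dlk1, Rtl1 and Dio3 are expressed from the paternal chromosome. Its long noncoding RNAs Meg3, Rtl1 antisense, Rian and Mirg are expressed from the maternal chromosome and carry most of the miRNA hairpins. In mouse pluripotent cells the maternal transcripts are known for their sensitivity to aberrant methylation of the imprinting control region, which can silence Meg3 and the miRNAs with it. Hairpins were grouped here by their order along the chromosome from Dlk1 to Dio3 and named after the noncoding RNA that usually counts as their host. The Meg3 group (miR-770) held 2 members, the Rtl1 antisense group (up to miR-136) 24, the Rian group (miR-341, miR-1188, miR-370 and miR-882) 7, the Mirg group (miR-379 to miR-410) 71, and the group on the Dio3 side (miR-3072 and miR-1247) 4. The names mark order and not the RefSeq bounds of a host. By those bounds miR-3072 lies within Mirg, while hairpins of the Mirg group such as miR-379 and miR-485 lie outside it.

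A mature sequence was found in RefSeq for 105 of the 109 members. The sequences below are the mature miRNAs on which the results turn, from 5′ to 3′, with the seed (bases 2 to 8, which pair with target mRNAs) in capitals. The first 6 rose in hypoxic EBs and the next 4 fell there.
miR-770-3p: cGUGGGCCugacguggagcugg
miR-370-3p: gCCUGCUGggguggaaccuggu
miR-3072-5p: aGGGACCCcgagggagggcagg
miR-494-3p: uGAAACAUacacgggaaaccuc
miR-1247-3p: cGGGAACGucgagacuggagc
miR-493-3p: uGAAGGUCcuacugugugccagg
miR-376b-3p: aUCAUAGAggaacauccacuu
miR-127-3p: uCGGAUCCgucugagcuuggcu
miR-434-3p: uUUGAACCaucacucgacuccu
miR-136-5p: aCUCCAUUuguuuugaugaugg
No 2 of these 10 share a seed. Of the other members, the next 3 pairs are shown because their letters are nearly alike.
miR-300-3p: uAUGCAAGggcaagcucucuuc
miR-381-3p: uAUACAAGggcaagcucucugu
miR-3070a-3p: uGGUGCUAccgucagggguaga
miR-3070b-3p: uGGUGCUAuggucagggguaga
miR-376a-3p: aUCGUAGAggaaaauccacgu
miR-376b-3p: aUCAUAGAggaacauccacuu
miR-300-3p and miR-381-3p differ at 3 positions, 1 of them in the seed. miR-376a-3p and miR-376b-3p also differ at 3 positions, 1 of them in the seed. miR-3070a-3p and miR-3070b-3p differ at 2 positions outside the seed and share the seed GGUGCUA. miR-379-5p shares its seed GGUAGAC with miR-1193-5p, which was not detected. How far each probe distinguishes such neighbours was not tested.

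Over the whole array between 408 and 495 miRNAs were detected per array, with the fewest in mESCs. Within a group the arrays had r between 0.997 and 0.998 across miRNAs. The mESC arrays were dimmer: their 75th percentile over the 391 miRNAs found on every array was 137.1 and 140.0 array units, while the EB arrays stood at 222 and 237 (normoxia) and 219 and 175 (hypoxia). Every value below was scaled to this percentile, so a scaled signal is relative to that array's common miRNAs, and the mESC arrays lay in another slide row than the rest, so that the slide row cannot be told apart from the cell state. Markers of pluripotent cells (10 miRNAs of the miR-290 to miR-295 and miR-302/miR-367 clusters) were detected on all arrays, with a summed scaled signal of 30884 to 32369 in mESCs, of 23890 to 26594 in the EBs kept in normoxia, and of 20538 to 20553 after hypoxia. From mESCs to normoxic EBs the miR-302/miR-367 markers fell by log2 changes of -1.57 to -1.83 (adjusted p at most 0.000466, limma), and miR-291a-5p by -0.57. The brightest markers, miR-291a-3p, miR-293-3p, miR-294-3p and miR-295-3p, changed by -0.08 to -0.23 and did not pass (adjusted p 0.0651 to 0.322, limma). Of 12 fibroblast markers, 6 were detected on at least 1 array, and their summed signal went from 460 to 485.3 in mESCs to 295.6 to 325 in normoxic and 241 to 257 in hypoxic EBs. Most of that sum was miR-21a-5p, which fell from mESCs to normoxic EBs (log2 change -1.09, adjusted p = 0.00110). Other fibroblast markers went the opposite way: miR-125b-5p rose from 26.3 and 24.5 to 75.1 and 64.7 (log2 change 1.46, adjusted p = 0.000819), miR-199a-3p was read on the EB arrays alone, at 4.50 to 7.85, and miR-214-3p and miR-145a-5p were read on hypoxic array 1 alone. The remaining 6, with miR-199a-5p, miR-199b-5p and miR-143-3p among them, were undetected on every array. Of 6 neural markers 5 were detected, with sums of 252 and 252, 305 to 318, and 259 and 259. Within these sums miR-124-3p rose from mESCs to normoxic EBs (log2 change 1.12, adjusted p = 0.000466), while miR-9-5p, miR-9-3p and miR-218-5p fell (-0.61, -0.71 and -0.96, adjusted p between 0.00468 and 0.0203). Of 6 muscle markers only miR-206-3p was detected, on mESC array 1 and hypoxic array 1. The part of feeder cells or of a changing mix of cells in the results below was not tested, and in such bulk RNA fewer cells of a type and less RNA per cell cannot be told apart.

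Detection of the domain was sparse, and most of the hairpins that were detected were read through 1 arm. On at least 1 array 28.4% of the members were detected, against 40.7% of all mouse miRNAs. Of the 52 hairpins with both arms on the array, 25 had 1 detected arm, 25 had none, and only Mir1188 and Mir3070a had both. The 78 members never detected included miR-381-3p, miR-411-5p and miR-541-5p of the Mirg group. In mESCs 16 and 18 members were detected per array, in EBs under normoxia 28 and 28, and under hypoxia 29 and 22. Members were thus counted more often in EBs than in mESCs, and so were all miRNAs. Of all miRNAs 408 and 415 were detected per array in mESCs, 446 and 473 under normoxia, and 495 and 471 under hypoxia. The member counts differed more between the hypoxic arrays than within the other groups, which the counts of all miRNAs did not.

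**Figure D1:**
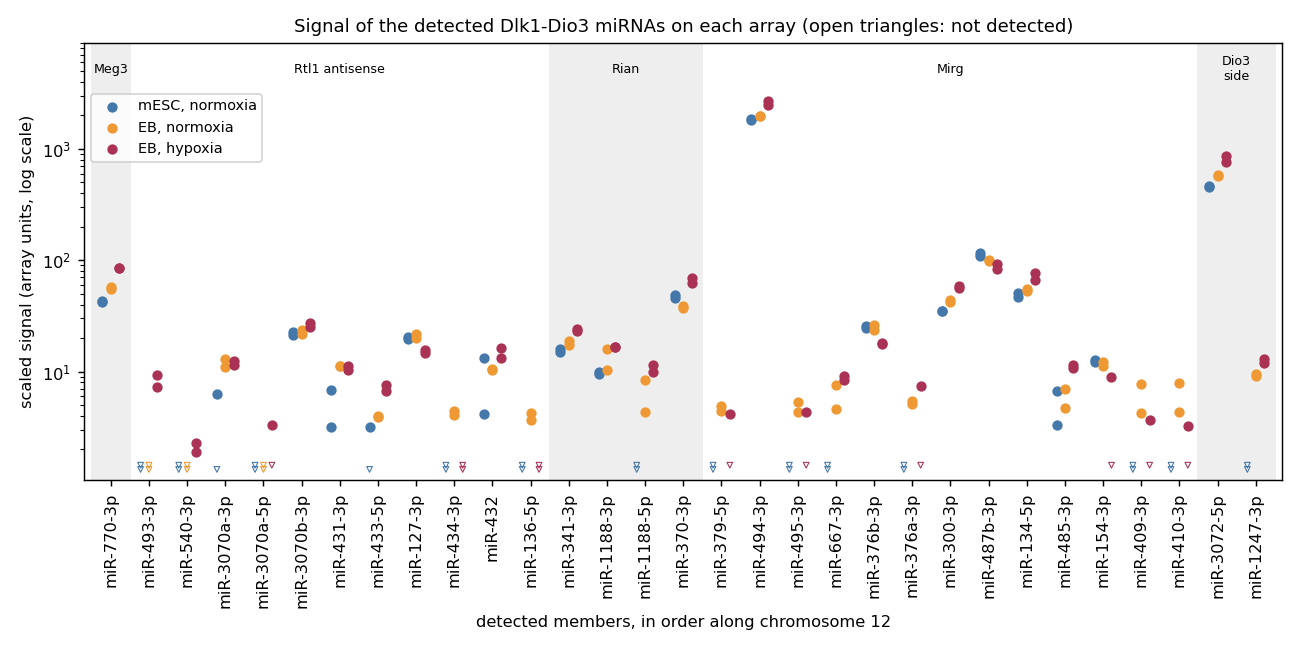
Scaled signal (array units, log axis) of the 31 detected members on each array, in their order along chromosome 12, with grey and white bands for the groups of hairpins. Filled points are single arrays, coloured by group, and open triangles mark arrays on which the member was not detected. Most members that lack a point on the mESC arrays sit below 13 units in EBs, and the 3 groups lie close together for most of the others.

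The 15 members detected on every array were miR-770-3p, miR-3070b-3p, miR-431-3p, miR-127-3p, miR-432, miR-341-3p, miR-1188-3p, miR-370-3p, miR-494-3p, miR-376b-3p, miR-300-3p, miR-487b-3p, miR-134-5p, miR-485-3p and miR-3072-5p. The 16 others dropped out somewhere, and these had low signals in the samples where they were read. miR-1188-5p, miR-1247-3p and miR-667-3p were undetected on both mESC arrays and detected on all 4 EB arrays. miR-376a-3p, miR-379-5p, miR-409-3p, miR-410-3p and miR-495-3p, all of the Mirg group, were undetected in mESCs and detected on both normoxic arrays and on hypoxic array 1. miR-136-5p and miR-434-3p, which lie antisense to Rtl1 and are known to direct its cleavage in the mouse, were read on the normoxic EB arrays alone. miR-493-3p and miR-540-3p were read on the hypoxic arrays alone, and miR-3070a-5p on hypoxic array 1 alone, which left it untested. miR-3070a-3p and miR-433-5p were missing from mESC array 1, and miR-154-3p from hypoxic array 2.

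The brightness of the arrays moved with these patterns. No miRNA was called detected with a signal under 3 times its error. The normoxic EB level of the 10 members undetected in mESCs and read on both normoxic EB arrays was carried to mESC brightness. It was set against their mean error on the normoxic EB arrays. For 8 it stood at less than 3 times that error. The exceptions were miR-667-3p, at 3.58 and 3.65 times, and miR-1247-3p, at 3.04 and 3.10 times. That error may not hold on the mESC arrays, where the lowest detected signals were 2.12 and 2.12 unscaled units. The carried levels, 2.89 to 6.89, all lay above these. This split thus does not show which of the 10 could have been read there. A lower level in mESCs and a dimmer array cannot be told apart. Likewise 7 members were detected on hypoxic array 1 and not on the dimmer hypoxic array 2, and none the other way round. Of the 8 members read on both normoxic EB arrays and missed on at least 1 hypoxic array, 4 fell under 3 times the same normoxic EB error when carried to the brightness of hypoxic array 2. miR-154-3p was not among these 4: it was read at 12.2 and 11.3 units on the normoxic and at 8.95 on hypoxic array 1. Its normoxic level would have stood at 4.72 times that error at the brightness of hypoxic array 2, where it was not detected.

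**Figure D2:**
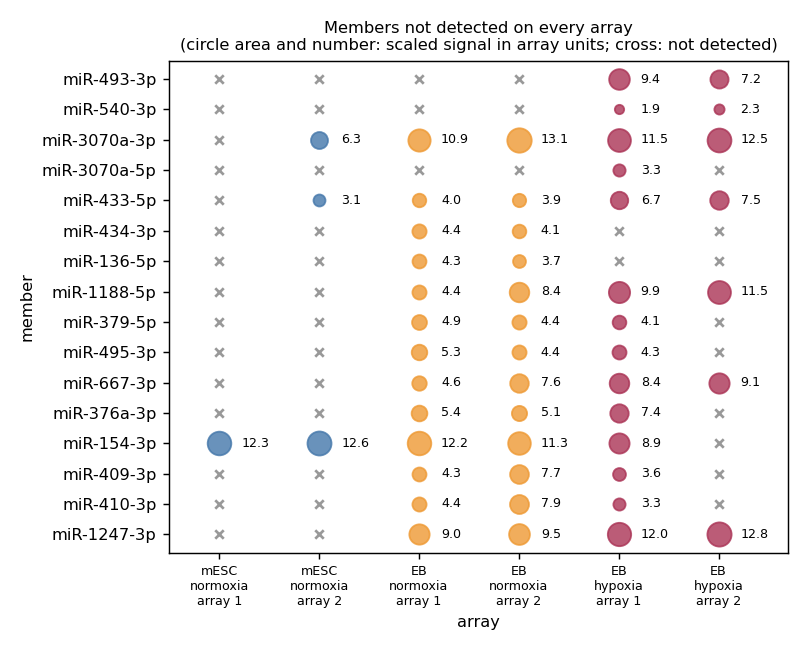
The 16 members not detected on every array (rows, in order along the chromosome) on the 6 arrays (columns). The area of a circle and the number beside it give the scaled signal in array units, and a cross marks an array where the member was not detected. Signals run from 1.9 to 13.1 units, crosses gather in the mESC columns, and hypoxic array 2 holds more of them than hypoxic array 1.

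The first comparison asked what differed once mESCs had been turned into EBs, both in normoxia. Of the 30 tested members 13 rose and 1 fell at an adjusted p under 0.05 (limma), where 26.0% of all 484 tested miRNAs rose and 25.2% fell. The median log2 change was 0.39 over the tested members and 0.05 over all tested miRNAs. Both the count and the median lean on the filter, since a member read in EBs alone entered the test only because it was higher there: 7 of the 13 were undetected on both mESC arrays and 2 on 1 of them. Among the 15 members detected on every array 4 rose and 1 fell, with a median of 0.22, against 22.8% rising, 29.7% falling and a median of 0.01 over the 391 miRNAs detected on all arrays. Signals of the 2 groups were free of overlap for 20 members that were higher in EBs and 3 that were lower, where 42.8% of all tested miRNAs were higher and 36.6% lower without overlap. The counts depended on the processing: 24 members rose and 0 fell without scaling, 4 rose and 0 fell with cyclic loess (none fell at an unadjusted p under 0.05 in either, limma), 3 rose with a floor 4 times as high and 4 rose with no filter. Without mESC array 2, or without normoxic EB array 2, 8 rose. Of the 13 risers, miR-300-3p, miR-434-3p and miR-667-3p were called under all 7 other scalings. For miR-434-3p and miR-667-3p, undetected on both mESC arrays, the filter and the floor had set the direction under any scaling.

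The 4 risers detected on every array came from 4 different groups of hairpins, as grouped here. miR-770-3p, which lies within Meg3, read 42.0 and 42.9 in mESCs and 57.1 and 55.4 in EBs. It was 1.33-fold higher in EBs (95% interval 1.22 to 1.44, adjusted p = 0.00316). miR-300-3p, of the Mirg group, read 34.6 and 34.7 in mESCs against 44.1 and 41.8 in EBs. That was a rise of 1.24-fold (1.13 to 1.36, adjusted p = 0.00934). Neither pair overlapped, and both calls held with any 1 array left out, but that of miR-770-3p was lost with cyclic loess (log2 change 0.26, adjusted p = 0.168). miR-3072-5p, on the Dio3 side, read 453 and 463 in mESCs and 584 and 570 in EBs, 1.26-fold higher (1.10 to 1.44, adjusted p = 0.0204). It was not called without mESC array 2 or without either normoxic EB array, with folds of 1.25 to 1.28. miR-431-3p, an Rtl1 antisense miRNA, read 3.15 and 6.79 in mESCs and 11.3 and 11.3 in EBs. Its rise of 2.44-fold (1.21 to 4.90, adjusted p = 0.0476) moved between 1.69-fold and 3.60-fold with 1 array left out, and the call was lost without any 1 of the EB arrays.

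The only member that fell was miR-370-3p, of the Rian group. Its mESC arrays read 46.1 and 49.0 and its normoxic EB arrays 36.8 and 39.2, which was 1.25-fold lower (1.09 to 1.44, adjusted p = 0.0235). These pairs of values did not overlap, but the call was lost without any 1 of these 4 arrays, and the log2 change turned from -0.32 to 0.40 without scaling and to 0.06 with cyclic loess.

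The other risers were read near the limit of the array. miR-1247-3p, encoded on the opposite strand beside Dio3, was undetected in mESCs and read 9.03 and 9.51 in EBs (adjusted p = 0.000348). miR-667-3p went from undetected to 4.60 and 7.57 (adjusted p = 0.0286), a call lost without either mESC array or either hypoxic array. miR-434-3p went from undetected to 4.42 and 4.08 (adjusted p = 0.00259). Carried to the brightness of the mESC arrays, the EB levels of miR-1247-3p and miR-667-3p stood above 3 times their normoxic EB error. That of miR-434-3p stood at 1.99 and 2.04 times. Its carried level, 3.10 and 3.16 unscaled units, still lay above the lowest signals detected there, so whether it could have been read is not settled. miR-136-5p (4.26 and 3.66 in EBs), miR-379-5p (4.87 and 4.41), miR-410-3p (4.37 and 7.86) and miR-495-3p (5.32 and 4.37) were likewise undetected in mESCs, with adjusted p between 0.0139 and 0.0494. miR-3070a-3p, read on mESC array 2 alone at 6.33, stood at 10.9 and 13.1 in EBs (adjusted p = 0.0368), and miR-433-5p, read there at 3.14, at 4.02 and 3.90 (adjusted p = 0.0189). For these members the p-value depends on the floor of 2.91 units that stands in for an undetected signal, and no fold is given. Calls were lost without any 1 of the 4 arrays compared for miR-379-5p and miR-495-3p, without any 1 of the mESC or hypoxic arrays for miR-410-3p, and without any 1 of the EB arrays for miR-3070a-3p. They were lost without either normoxic EB array for miR-433-5p and without mESC array 2 for miR-136-5p. Of all 13 risers, 4 were called with any 1 array left out: miR-300-3p, miR-770-3p, miR-434-3p and miR-1247-3p.

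The members that did not pass included several that are well known from this domain. miR-494-3p read 1826 and 1839 in mESCs and 1982 and 1966 in EBs, a ratio of 1.08 (0.976 to 1.19, adjusted p = 0.160). miR-134-5p, which in mouse ES cells targets the pluripotency factors Nanog and Sox2, read 47.0 and 50.4 against 52.9 and 55.0, a ratio of 1.11 (0.935 to 1.31). miR-127-3p, which directs cleavage of Rtl1 mRNA in the mouse, read 20.3 and 19.6 against 21.6 and 19.8, a ratio of 1.04 (0.912 to 1.18). miR-376b-3p read 24.5 and 25.7 against 26.0 and 23.7, and here the arrays of the groups overlapped, as they did for miR-127-3p. miR-487b-3p, at 109 and 117 in mESCs and 99.1 and 101 in EBs, had a log2 change of -0.17 (adjusted p = 0.101).

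The second comparison set hypoxic against normoxic EBs, so that only oxygen differed in the labels. Of the 30 tested members 10 rose and 4 fell, where 32.9% of all tested miRNAs rose and 25.2% fell. The share of risers among the members, 10 of 30, was near that background. The median log2 change was 0.29 over the tested members and 0.10 over all tested miRNAs. Among the 15 members detected on every array 7 rose and 2 fell, where 34.3% of the 391 miRNAs detected on all arrays rose and 28.1% fell. The groups did not overlap for 16 members that were higher in hypoxia and 11 that were lower, where 47.7% of all tested miRNAs were higher and 37.0% lower without overlap. The counts again depended on the processing: 3 members rose and 4 fell without scaling, 5 rose and 3 fell with cyclic loess, 9 rose and 7 fell with quantile normalization, and 1 rose and 0 fell with no filter (4 fell at an unadjusted p under 0.05, limma). Without hypoxic array 1, 7 fell. Of the 10 risers, miR-370-3p and miR-493-3p were called under all 7 other scalings. These counts lean on the filter too. miR-493-3p entered the test through the hypoxic arrays alone, and miR-136-5p and miR-434-3p, which fell, through the normoxic EB arrays alone. The filter and the floor thus set the direction of these calls under any scaling.

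Among the called members detected on every array, the largest rises were those of miR-370-3p and miR-770-3p, and both calls held with any 1 array left out. miR-370-3p, 36.8 and 39.2 in normoxic EBs, read 63.0 and 69.3 in hypoxic EBs, 1.74-fold higher (1.52 to 2.00, adjusted p = 0.00694). Its arrays in hypoxia also lay above those of the mESCs (46.1 and 49.0), so that on this scale normoxic EBs read lowest. That order rests on the scaling: unscaled, the mESC arrays read 33.6 and 36.4, below the normoxic EB arrays at 43.5 and 49.3. miR-770-3p went from 57.1 and 55.4 to 85.2 and 85.8, 1.52-fold higher (1.40 to 1.65, adjusted p = 0.00611). The scaled values of the 3 groups did not overlap. The call under hypoxia was lost without scaling, with the authors' ratio and with cyclic loess, where the log2 change went down to 0.32 and the adjusted p up to 0.128 (limma).

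Further members rose by smaller steps. miR-3072-5p read 768 and 865 in hypoxic EBs against 584 and 570 in normoxic ones (1.41-fold, 1.24 to 1.61, adjusted p = 0.0103). miR-494-3p read 2505 and 2690 against 1982 and 1966 (1.31-fold, 1.19 to 1.45, adjusted p = 0.00908). Both turned slightly downward with cyclic loess, to log2 changes of -0.05 and -0.08. miR-300-3p read 56.3 and 58.2 against 44.1 and 41.8 (1.33-fold, 1.22 to 1.46, adjusted p = 0.00768). miR-134-5p read 65.9 and 76.5 against 52.9 and 55.0 (1.32-fold, 1.11 to 1.56, adjusted p = 0.0235). miR-341-3p, an miRNA of rodents in the Rian group, read 22.9 and 24.2 against 17.2 and 18.8 (1.31-fold, 1.14 to 1.50, adjusted p = 0.0167). The arrays did not overlap for any of these 5, but miR-134-5p was not called without hypoxic array 2 or either normoxic array, nor miR-341-3p without hypoxic array 2 or normoxic array 1. The call of miR-134-5p was also lost with cyclic loess (log2 change 0.03).

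The remaining 3 risers were dim. miR-433-5p, whose hairpin lies antisense to Rtl1, read 6.70 and 7.55 in hypoxic EBs against 4.02 and 3.90 in normoxic ones (1.80-fold, 1.54 to 2.09, adjusted p = 0.00694). miR-1247-3p read 11.96 and 12.8 against 9.03 and 9.51 (1.34-fold, 1.20 to 1.49, adjusted p = 0.00958). miR-493-3p was undetected on all 4 arrays in normoxia and read 9.38 and 7.22 in hypoxia, at 8.25 and 5.94 times its error (adjusted p = 0.00694). The normoxic EB arrays, on which it was missed, were brighter than both hypoxic arrays. It was the only tested member above the floor that was read in hypoxia alone, since miR-540-3p, at 1.91 and 2.28 units, lay below the floor.

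**Figure D3:**
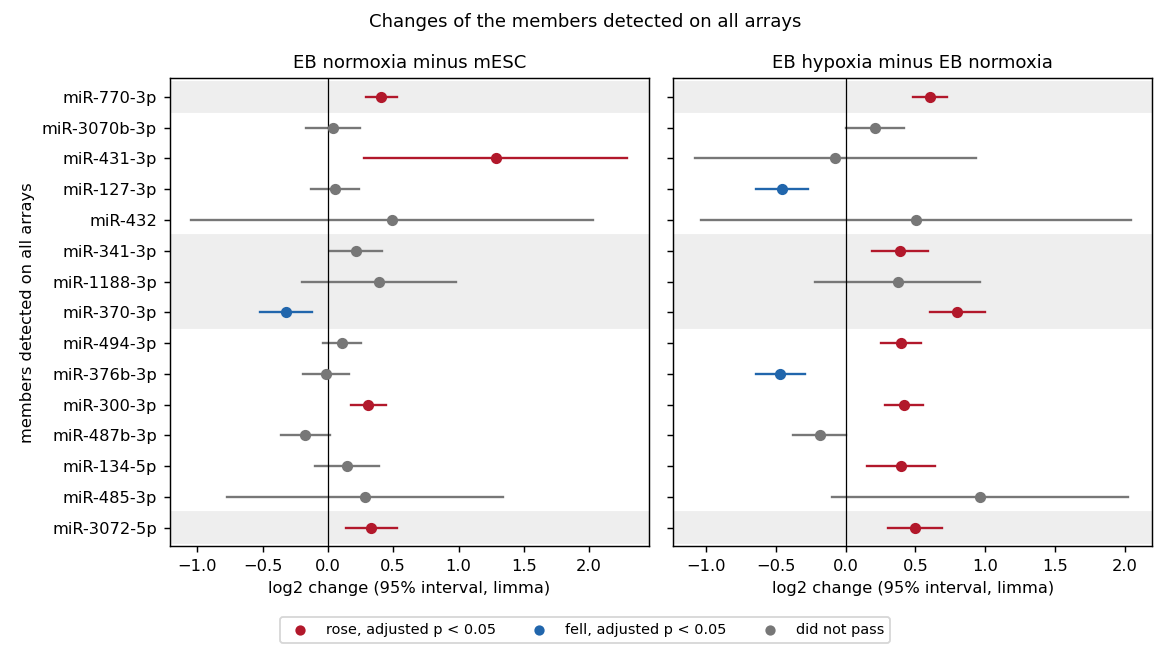
Log2 change (x axis) of the 15 members detected on every array, in order along the chromosome, between normoxic EBs and mESCs (left) and between hypoxic and normoxic EBs (right). Points are the limma estimates from 2 arrays a group and bars their 95% intervals; red marks a rise and blue a fall at an adjusted p under 0.05. On the right 7 members are marked as rising and 2, miR-127-3p and miR-376b-3p, as falling. On the left 4 are marked as rising and miR-370-3p as falling. The other points, on either side of 0, did not pass.

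The 4 members that fell in hypoxia were from the Rtl1 antisense and Mirg groups. miR-376b-3p read 18.1 and 17.8 in hypoxic EBs against 26.0 and 23.7 in normoxic ones, 1.38-fold lower (1.23 to 1.56, adjusted p = 0.00958). miR-127-3p read 14.6 and 15.6 against 21.6 and 19.8, 1.37-fold lower (1.21 to 1.56, adjusted p = 0.0110), and turned to a log2 change of 0.13 with cyclic loess. Between mESCs and normoxic EBs the arrays of both had overlapped, and both calls under hypoxia held with any 1 array left out. miR-434-3p (adjusted p = 0.00705) and miR-136-5p (adjusted p = 0.0163) were undetected on both hypoxic arrays after 4.42 and 4.08 and 4.26 and 3.66 in normoxia. Carried to the brightness of hypoxic array 1, their normoxic levels stood at 3.18 and 2.99 times their error on the normoxic EB arrays. For array 2 it was 2.54 and 2.39 times. No miRNA was called detected under 3 times its own error, but the normoxic error may not hold on the hypoxic arrays. The lowest signals detected there were 2.03 and 1.93 unscaled units, below the carried 4.61 and 3.67 of miR-136-5p. This measure thus cannot tell a lower level of miR-136-5p from the limit of the array. miR-434-3p stood just above 3 times the normoxic error on array 1, where it was undetected, and below it on array 2. The call of miR-136-5p was lost without either hypoxic array.

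Among the other members, miR-485-3p read 10.9 and 11.4 in hypoxic against 4.69 and 6.95 in normoxic EBs, a ratio of 1.95 (0.934 to 4.06, adjusted p = 0.0953). Its hypoxic arrays lay above all the others, and its mESC arrays read 6.69 and 3.29. miR-1188-5p and miR-1188-3p, the arms of a single Rian hairpin, had log2 changes of 0.82 and 0.37 (adjusted p = 0.0916 and 0.198). miR-3070b-3p read 25.1 and 27.3 against 21.6 and 23.7 (adjusted p = 0.0729), and its near neighbour miR-3070a-3p read 11.5 and 12.5 against 10.9 and 13.1. miR-432, at 13.3 and 16.4 against 10.4 and 10.4, had the widest interval of the members detected throughout (0.489-fold to 4.12-fold), and its mESC arrays read 4.15 and 13.3. miR-376a-3p, at 5.44 and 5.06 in normoxia, read 7.43 on hypoxic array 1 and was missed on array 2. Its log2 change of -0.17 (adjusted p = 0.761) became 0.50 without hypoxic array 2.

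The third comparison, hypoxic EBs against mESCs, differed in both cell state and oxygen and shares its arrays with the first 2. Here 17 members rose and 3 fell of 30, where 41.3% of all tested miRNAs rose and 33.7% fell. Without scaling or with scaling to the hur control features 17 rose and none fell (none at an unadjusted p under 0.05 either, limma), and with quantile normalization 11 rose and 4 fell. Among the 15 detected on every array 11 rose and 3 fell, where 38.1% of the 391 miRNAs detected on all arrays rose and 40.7% fell. The groups did not overlap for 18 members that were higher in hypoxic EBs and 4 that were lower, against 48.6% and 39.5% of all tested miRNAs. miR-770-3p was 2.02-fold higher (1.86 to 2.19, adjusted p = 0.000265), miR-3072-5p 1.78-fold (1.56 to 2.03, adjusted p = 0.00107), miR-300-3p 1.65-fold (1.50 to 1.81, adjusted p = 0.000650) and miR-341-3p 1.52-fold (1.32 to 1.75, adjusted p = 0.00258). Smaller rises were those of miR-134-5p (1.46-fold), miR-494-3p (1.42-fold), miR-370-3p (1.39-fold) and miR-3070b-3p (1.19-fold, adjusted p = 0.0385). All of these but miR-3070b-3p, which was lost without any 1 of the 4 arrays compared, were called with any 1 array left out. With cyclic loess miR-3070b-3p was not called, nor were miR-134-5p, miR-494-3p and miR-3072-5p, at log2 changes of 0.01, 0.02 and -0.02. The other 3 risers detected on every array were miR-1188-3p (1.70-fold, 1.13 to 2.56, adjusted p = 0.0309), miR-431-3p (2.31-fold, 1.15 to 4.65, adjusted p = 0.0385) and miR-485-3p (2.37-fold, 1.14 to 4.94, adjusted p = 0.0413). Each of these 3 calls was lost without either hypoxic array. Leaving out 1 array moved miR-431-3p between 1.59-fold and 3.40-fold and miR-485-3p between 1.66-fold and 3.41-fold. The 6 risers missed on at least 1 mESC array were miR-1188-5p, miR-1247-3p, miR-3070a-3p, miR-433-5p, miR-493-3p and miR-667-3p, with adjusted p from 0.000196 to 0.0243. All but miR-3070a-3p and miR-433-5p were undetected on both mESC arrays, so they entered the test only through EB arrays, where they were higher. Of the 6, miR-1247-3p, miR-433-5p and miR-493-3p were called with any 1 array left out. miR-1188-5p was lost without mESC array 1 or hypoxic array 2, miR-667-3p without hypoxic array 2, and miR-3070a-3p without any 1 of the EB arrays. miR-376b-3p was 1.40-fold lower, miR-127-3p 1.32-fold lower and miR-487b-3p 1.28-fold lower (adjusted p between 0.00311 and 0.00960). Those 3 falls held with any 1 array left out, but none held without scaling, where the log2 changes were 0.01, 0.09 and 0.14.

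The groups of hairpins were set side by side within the second comparison. In the Rian group 2 of 4 tested members rose and the others did not pass, with a median log2 change of 0.59. The Meg3 group's 1 tested member and both members of the Dio3 side rose, with medians of 0.60 and 0.46. In the Rtl1 antisense group 2 of 10 rose and 3 fell, with a median of 0.00. Among these calls miR-493-3p, miR-136-5p and miR-434-3p had entered the test through 1 group of arrays alone. Over its 4 members detected on every array 0 rose and 1 fell, with a median of 0.07. In the Mirg group 3 of 13 rose and 1 fell, with a median of -0.19, which became 0.40 over its 6 members detected on every array. The members thus did not move as a block: within each of the 2 larger groups some rose while others fell, and miR-376b-3p, which fell, lies between miR-494-3p and miR-300-3p, which rose. Mixed directions are not read as particular to the domain, since 32.9% of all tested miRNAs rose under hypoxia and 25.2% fell. From mESCs to normoxic EBs the medians were 0.42 in the Rtl1 antisense group (5 of 10 rose), 0.31 in the Mirg group (5 of 13 rose) and 0.30 in the Rian group (1 of 4 fell), where 26.0% of all tested miRNAs rose. Most of those risers had entered the test through the EB arrays. Over members detected on every array 1 of 4 rose in the Rtl1 antisense group, with a median of 0.27, and 1 of 6 in the Mirg group, with a median of 0.13.

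A direct measure of a shift between groups is the mean log2 signal of the members detected on every array in one group of hairpins minus that in another, taken within an array. Its size compares different probes, so only its change between arrays is read. For the 6 Mirg members minus the 4 Rtl1 antisense members it was 2.82 and 1.99 for mESCs, 2.01 and 2.08 under normoxia and 2.26 and 2.25 under hypoxia in EBs. The value of mESC array 1 stands apart, and there miR-431-3p and miR-432 read 3.15 and 4.15, against 6.79 and 13.3 on array 2. For the 3 Rian members minus the Mirg members it was -1.71 and -1.50, then -1.73 and -1.52, then -1.35 and -1.36. In both measures the hypoxic arrays lay above the normoxic ones, but with 2 arrays against 2 an exact two-sided permutation test cannot go below p = 0.333. With cyclic loess the Mirg minus Rtl1 antisense change under hypoxia was -0.24.

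Base composition enters neither the choice of members nor the grouping. Members were split by it after the values were seen. Of the 19 tested members with at least 50% G and C, 8 rose and 1 fell, with a median log2 change of 0.42. Of the 10 members below 50%, 2 rose and 3 fell, with a median of -0.44. Most of these 10 were undetected on at least 1 hypoxic array, so that this median leans on the floor. Over the 2 of them detected on every array it was -0.04, and over the 12 such members with at least 50% it was 0.41. The medians split in the same direction over all tested miRNAs with a sequence, the members included. There 94 of the 221 with at least 50% rose and 23 fell (median 0.33), and 21 of the 142 below 50% rose and 72 fell (median -0.28). The share of risers among the members rich in G and C thus lay at that background. The risers miR-3072-5p, miR-770-3p and miR-370-3p hold 77.3%, 72.7% and 68.2%, while miR-136-5p and miR-376b-3p, which fell, hold 36.4% and 38.1%, as can be read from their sequences above. miR-127-3p, which fell with 59.1%, and miR-494-3p and miR-433-5p, which rose with 45.5% each, went the other way.

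Across the 29 tested members with a sequence, G and C content correlated with the log2 change under hypoxia with r = 0.576 (Spearman rho = 0.543). Over the 14 detected on every array the values were 0.395 and 0.267. Between normoxic EBs and mESCs r was 0.0590 over the same 29 (rho = 0.041) and 0.117 over the 14 (rho = 0.287). Over the 363 tested miRNAs with a sequence it was 0.215 in that comparison (rho = 0.286). These are correlations across miRNAs of the same arrays, which are not independent of each other, and the values of the dimmest members rest on the floor. Over the 363 tested miRNAs with a sequence r under hypoxia was 0.444 (rho = 0.520), and over the 276 miRNAs outside the member list that have a sequence and were detected on every array it was 0.528. The members' correlation is thus not read as particular to the domain. These 363 are under 80% of the 484 tested, so the check is void as a statement on all tested miRNAs. The part of base composition in these changes was not tested.

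**Figure D4:**
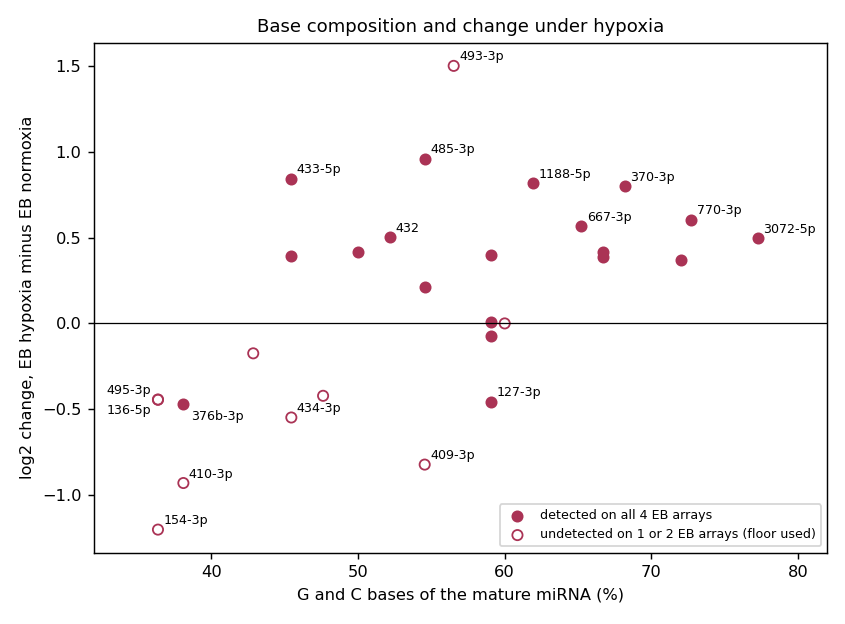
Share of G and C bases in the mature miRNA (x axis, %) against the log2 change between hypoxic and normoxic EBs (y axis) for the 29 tested members with a sequence. Filled points were detected on all 4 EB arrays and open points were missed on at least 1, so that their change rests on the floor. Most of the points below 50% lie under 0, and most of those at 60% or more lie above it.

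Outside the number list, 8 more miRNAs of the domain are on the array (miR-453, miR-666, miR-1906, miR-3071 and miR-3544 by number). Only miR-1906 was detected, at 255 and 256 in mESCs, at 290.6 and 292.9 in EBs under normoxia and at 322 and 362 under hypoxia. It rose under hypoxia (log2 change 0.23, adjusted p = 0.0486) and between mESCs and hypoxic EBs (0.42, adjusted p = 0.00599). For comparison with imprinting elsewhere, 6 of 10 miRNAs of other imprinted loci were detected, all of them on every array. Under hypoxia 2 of these rose and 2 fell, with a median of 0.17. Among them miR-335-5p, in an intron of Mest, fell with a log2 change of -0.56 (adjusted p = 0.00802), and miR-298-5p, of the Gnas domain, rose with 0.41 (adjusted p = 0.0184).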

How the data were processed

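Per the file headers, the authors deposited for each array a total gene signal per miRNA (an intensity), its error and a detection flag, with undetected miRNAs at 0.1. The labels describe Trizol extraction and a one-colour amplification kit for cRNA. The sources used here do not say whether that kit was used for miRNA, nor which scanner software read the arrays. A table of the whole series also deposited by the authors holds raw signals, equal to the scanner files on 1253 of 1253 shared rows, and a normalized ratio of each array to a control value, without scaling between arrays. Its 6 columns for 2 arrays that match no sample were not used, and its positions name no genome build.

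Signals were divided by the array's 75th percentile, taken over the 391 miRNAs found on every array, multiplied by the mean percentile, floored at 2.91 units and taken to log2. The 484 miRNAs that some group had detected on both of its arrays were tested. A model of the 3 group means was fitted to all 6 arrays by limma 3.58.1 in R 4.3.3 (lmFit and eBayes, 3 residual and 1.43 prior degrees of freedom), with Benjamini-Hochberg adjustment over the 484 in each comparison. The threshold was 0.05. Adjusted p-values all come from limma, and every fold is the ratio of geometric means of 2 arrays a group. A member undetected in a group is given no fold, since the floor sets it. The fit was also run on simulated data that had no floor, no undetected values and no filter. That run thus does not bear on the calls that rest on these.

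Members, lists, the grouping of hairpins and the tests were chosen with earlier results of these data known. All tested members could be named. Sequences, strands and the order along chromosome 12 came from RefSeq tables of GRCm38.p6 by name. The alternatives were 7 other scalings, 2 other floors, 2 other filters, the arrays of the compared groups alone, an intensity trend, the replicate number as a block and leaving out each array. The replicate numbers did not pair the arrays: deviations of same-numbered arrays correlated with -0.0257, 0.152 and 0.109 between the groups. Figures were drawn with Python 3.11.15 and matplotlib 3.10.9.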

Additional observations from a re-analysis of the deposited data

How the results depend on the processing

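The counts of calls moved with the scaling, the floor and the filter. The median log2 change of all tested miRNAs was 0.05, 0.10 and 0.11 in the 3 comparisons (normoxic EBs minus mESCs, hypoxic minus normoxic EBs, hypoxic EBs minus mESCs), and 0.74, -0.10 and 0.57 without scaling. Of the members that rose, 3 of 13, 2 of 10 and 7 of 17 were called under all 7 other scalings (in order miR-300-3p, miR-434-3p and miR-667-3p, then miR-370-3p and miR-493-3p, and last miR-1188-5p, miR-300-3p, miR-341-3p, miR-370-3p, miR-493-3p, miR-667-3p and miR-770-3p). Of those that fell it was 1 of 4 under hypoxia (miR-434-3p) and 0 of the 3 in hypoxic EBs against mESCs. Among the members named, miR-434-3p, miR-667-3p, miR-493-3p and miR-1188-5p were undetected on both arrays of the lower group. The filter and the floor had thus set their direction. In the order of the comparisons, 26.0%, 32.9% and 41.3% of all tested miRNAs rose in the fit reported above.

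Without scaling, and with the authors' ratio, 24 members rose and 0 fell (0 at an unadjusted p under 0.05, limma) in normoxic EBs against mESCs, 3 rose in hypoxic against normoxic EBs, and 0 fell (0 unadjusted) in hypoxic EBs against mESCs. Over all tested miRNAs 326 (327 with the ratio) rose and 11 fell in the first comparison, 24 rose in the second and 19 fell in the third. In the first comparison miR-370-3p turned to 0.40, miR-376b-3p to 0.71 and miR-487b-3p to 0.55, and in the third miR-127-3p turned to 0.093, miR-376b-3p to 0.013 and miR-487b-3p to 0.14. With quantile normalization 0 members fell (0 unadjusted) in the first comparison, where miR-433-5p turned to -0.0074, 7 fell in the second and 11 rose in the third. With cyclic loess 4 members rose and 0 fell (0 unadjusted) in the first comparison, 5 rose in the second and 9 in the third. Over all tested miRNAs these numbers were 82 rises and 66 falls, 55 and 65, and 122 and 101. Loess turned miR-370-3p to 0.059 in the first comparison, miR-127-3p to 0.13, miR-3072-5p to -0.053 and miR-494-3p to -0.084 in the second, and miR-127-3p to 0.12, miR-3072-5p to -0.018 and miR-487b-3p to 0.038 in the third. It also took the change of the Mirg minus Rtl1 antisense level to -0.24 in the second and -0.62 in the third. With hur control scaling 15 of all tested miRNAs fell in the second comparison and 60 in the third, where 0 members fell (0 unadjusted). The 75th percentile of all mouse miRNAs gave 2 members that fell in the first.

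With a floor 4 times as high 3 members rose in the first comparison (57 of all tested), 2 fell in the second and 7 rose in the third, and the Mirg minus Rtl1 antisense change in the first was 0.064. With only miRNAs detected on all arrays 4 rose in the first, 2 fell in the second and 11 rose in the third. With no filter 4 rose and 0 fell (1 unadjusted) in the first, 1 rose and 0 fell (4 unadjusted) in the second and 9 rose in the third, with 43 and 51, 12 and 8, and 124 and 107 of all miRNAs rising and falling. Here more miRNAs were tested, most of them at the floor. With the arrays of the compared groups alone 78 of all tested miRNAs fell in the second comparison.

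Leaving out each array gave 8 to 11 members that rose and 0 to 1 that fell in the first comparison, 8 to 12 and 4 to 7 in the second, and 12 to 15 and 3 to 4 in the third. Over all tested miRNAs the ranges were 74 to 144 rises and 65 to 116 falls, 87 to 154 and 64 to 124, and 165 to 193 and 126 to 164. The Mirg minus Rtl1 antisense change ranged from -0.77 to 0.057, from 0.17 to 0.24, and from -0.57 to 0.26, and without mESC array 1 it was 0.057 in the first and 0.26 in the third. miR-376a-3p ranged from -0.85 without hypoxic array 1 to 0.50 without hypoxic array 2 in the second comparison. With the replicate number as a block 13 members rose and 1 fell in the first comparison, 11 and 4 in the second, and 15 and 3 in the third; the numbers share no stated source, so this pairing is only a check. The causes of these shifts were not tested. Signal over background limits the dim members: those read below 3 times their error on an array have no level there.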
